A study of Mus musculus with 58 samples.

Results

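The genes described here are 9 antiviral RNA sensors and interferon response genes, found by symbol in a table of 24077 genes. They are the RNA helicases Ddx60, Ddx58 (RIG-I), Ifih1 (MDA5) and Dhx58 (LGP2), the adaptor Mavs, the endosomal receptor Tlr3, the transcription factors Irf3 and Irf7 and the ubiquitin-like modifier Isg15. They were chosen by the fall of Ddx60 in knockout oocytes, to see whether other sensors and interferon genes followed it. Their oocyte values, from the contrast that they were selected on, are therefore given as a description: their errors and any count of calls describe the values that chose them, no p is printed for them, and nothing is supported with them.

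RNA was sequenced from fully grown oocytes (FGO) of B6.129 strain, either wild type controls (CTR, 2 libraries) or Pcgf1/6 double knockout (KO, 2 libraries). It was also sequenced from morulae and from extraembryonic ectoderm (ExE), the trophoblast tissue next to the epiblast, of a B6.129 x PWK cross. Morulae gave 2 wild type CTR libraries and 2 of Pcgf1/6 double maternal knockout (matKO), and ExE gave 2 CTR and 4 matKO libraries. Pcgf1 and Pcgf6 encode subunits of variant Polycomb repressive complex 1, which ubiquitinates histone H2A. In matKO embryos the knockout is that of the mother, with B6.129 as the maternal and PWK as the paternal strain by the labels. The sources used here give neither the Cre driver nor the number of oocytes or embryos behind a library.

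In most cells RIG-I and MDA5 bind double-stranded or uncapped RNA in the cytoplasm and pass the signal to MAVS on mitochondria, while TLR3 reads double-stranded RNA in endosomes. LGP2 lacks the signalling domain and tunes both helicases, and DDX60 is a related helicase of the interferon response. Kinases then activate IRF3 and IRF7, which switch on type I interferons. Secreted interferon acts through its receptor on the interferon-stimulated response element (ISRE) in promoters of genes such as Isg15, Irf7 and the sensors themselves. Early embryos are known for weak interferon responses.

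Promoter windows from RefSeq (GRCm38.p6) were matched for 8 of the 9 genes, with no entry for Dhx58. Each holds 250 bases before and 50 after the listed start. Only 1 start per gene was used, and Ddx60 and Tlr3 have 8 transcripts each. The listed starts of Ddx60, Tlr3 and Irf7 lie inside the genes as annotated. The Ddx60 stretch printed below ends at 61928086, past the annotated gene start at 61928073. The Tlr3 window, 45410331 to 45410630, lies wholly within the gene, 45395665 to 45411075. The ISRE core, searched as GAAANNGAA on both strands, was present in the windows of Ddx60, Ddx58, Ifih1 and Isg15 and in 2812 of all 32841 windows (8.56%). Ddx60 held 2 matches, at -53 and -19 from its start, and Isg15 held 3 overlapping ones, at -78, -72 and -66. A pair or more of matches was found in 0.624% of all windows. Ifih1 held 2, at -112 on the opposite strand and at 32, and Ddx58 held 1, at 3 on the opposite strand. The 150 bases before the start are shown for the 3 genes with matches there, to set the same motif beside the different levels described next. Capitals mark the ISRE core. The stretches are chr8:61927937-61928086 (plus strand) for Ddx60, chr2:62646256-62646405 (minus strand) for Ifih1 and chr4:156200819-156200968 (minus strand) for Isg15, printed in the direction of transcription.
Ddx60: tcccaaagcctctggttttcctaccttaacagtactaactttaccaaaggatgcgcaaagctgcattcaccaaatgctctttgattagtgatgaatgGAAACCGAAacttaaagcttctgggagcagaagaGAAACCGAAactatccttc
Ifih1: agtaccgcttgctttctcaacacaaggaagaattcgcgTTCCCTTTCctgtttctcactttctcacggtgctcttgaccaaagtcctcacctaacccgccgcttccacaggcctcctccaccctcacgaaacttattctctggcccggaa
Isg15: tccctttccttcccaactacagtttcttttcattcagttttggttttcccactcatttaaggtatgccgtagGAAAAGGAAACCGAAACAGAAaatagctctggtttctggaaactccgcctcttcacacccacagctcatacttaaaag

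The Mavs, Tlr3, Irf3 and Irf7 windows held no ISRE core in these letters. The GAS element (TTCNNNGAA, in 8.30% of all windows), the E-box (CACGTG, 7.15%) and an E2F element (GCGGGAA, 4.60%) were found in none of the 8 windows. An NF-kB core (GGGANTTTC, 1.11% of all windows) was found in the Tlr3 window alone, at -211. The Ddx60 window held 6 CpG dinucleotides and the Isg15 window also 6, near the median of 7 over all windows. The windows of Mavs, Irf3, Ddx58 and Ifih1 held 19, 18, 15 and 14 CpG dinucleotides.

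Total counts were 19805264 to 26364085 per FGO library. Morula libraries held 1299715 to 1685510 counts and ExE libraries 3397585 to 4361832, which are reads assigned to the maternal or the paternal allele, summed here. Levels are in CPM, the count divided by the library's total and scaled to a common total, with adjustment within a stage with TMM factors. In 1 library, 3 counts equal between 0.117 and 0.157 CPM for FGO, between 1.75 and 2.35 CPM for morulae and between 0.699 and 0.869 CPM for ExE, so that low genes are much better resolved in oocytes. A 0 in an embryo library is not absence of the RNA, since reads without a strain variant are not counted there: B2m, used by nearly every cell, is listed at 0 in all 10 embryo libraries. Levels in oocytes and embryos are therefore of different kinds and are set side by side with no test, and levels of different genes are not compared because gene length is not accounted for. Nothing in the labels says that replicates came from separate animals, so p-values measure the spread between these libraries, which may be technical. In such bulk samples fewer cells of a type and less RNA per cell cannot be told apart.

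The targeted gene Pcgf1 had 37080 and 28293 counts in the FGO CTR libraries and 767 and 452 in KO. Pcgf6 fell from 408 and 446 CPM in FGO CTR to 159 and 228 CPM in KO (edgeR log2 difference -1.14, SE 0.19, adjusted p = 0.0102). In embryos Pcgf6 reads were 40.0% paternal in morula CTR and 56.2% in matKO, a shift that was not called (log2 0.91, SE 0.18, adjusted p = 0.385 by the edgeR allele test), with no change of the total called (log2 -0.04, SE 0.14, adjusted p = 0.915). In ExE they were 38.0% paternal in CTR and 63.7% in matKO (59.9% without matKO replicate 3), a shift that was called (log2 1.26, SE 0.14, adjusted p = 1.29e-05). Pcgf1 counts in morulae were few and not lower in matKO, with 1 and 0 in CTR and 4 and 4 in matKO, all 8 of them maternal. The matKO level was 10.2 times that of CTR from these few counts (95% exact interval 1.36 to 451, covering counting error only). In ExE Pcgf1 had 0 and 0 counts in CTR and 1, 0, 0 and 0 in matKO. The Pcgf6 share in morulae moved toward paternal, the direction of the label. Its 95% exact intervals were 36.4 to 43.7% in CTR and 51.9 to 60.4% in matKO, covering counting error only. As the 2 genes differ in this, the morula libraries are called labelled matKO below. So few Pcgf1 counts cannot decide whether the label is wrong, and the FGO KO libraries kept Pcgf1 counts too. The 6 oocyte markers summed to 16886 to 17174 CPM in FGO CTR and 10390 to 17098 CPM in KO. ExE markers were highest in ExE, at 960 to 1182 CPM summed, with Bmp4 listed at 0 there, and Pou5f1 and Tdgf1 are listed at 0 in morulae. The ExE matKO replicate 3 library stood apart: 64.9% of its autosomal reads were paternal, against 48.5 to 48.8% in the other 3 matKO libraries, so results of the 9 genes that rest on it are given with and without it.

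Ddx60 was present at a moderate level in control oocytes and nearly lost in the knockout. It had 224 and 333 counts (8.75 and 13.5 CPM) in the FGO CTR libraries and 18 and 10 counts (0.736 and 0.524 CPM) in KO. Both KO libraries lay far below both CTR libraries, though above the level of 3 counts. The mean was 11.1 ± 3.33 CPM in CTR and 0.630 ± 0.150 CPM in KO (SD, n = 2 each). Fitted over all genes, the KO level was 17.3-fold lower (log2 -4.11, SE 0.38). From summed counts the KO level was 0.0581 of the CTR level (95% exact interval 0.0383 to 0.0849, covering counting error only). Leaving out any 1 FGO library gave log2 changes between -4.40 and -3.77.

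Among 13459 genes tested in FGO, 972 were called at an adjusted p under 0.05 (7.22%), with 720 higher and 252 lower in KO. Of the 9 genes, 6 passed the filter on low counts in FGO, and Ddx60, whose fall chose the set, was the one past that threshold. As the contrast chose the genes, nothing is read from this count.

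**Figure D1:**
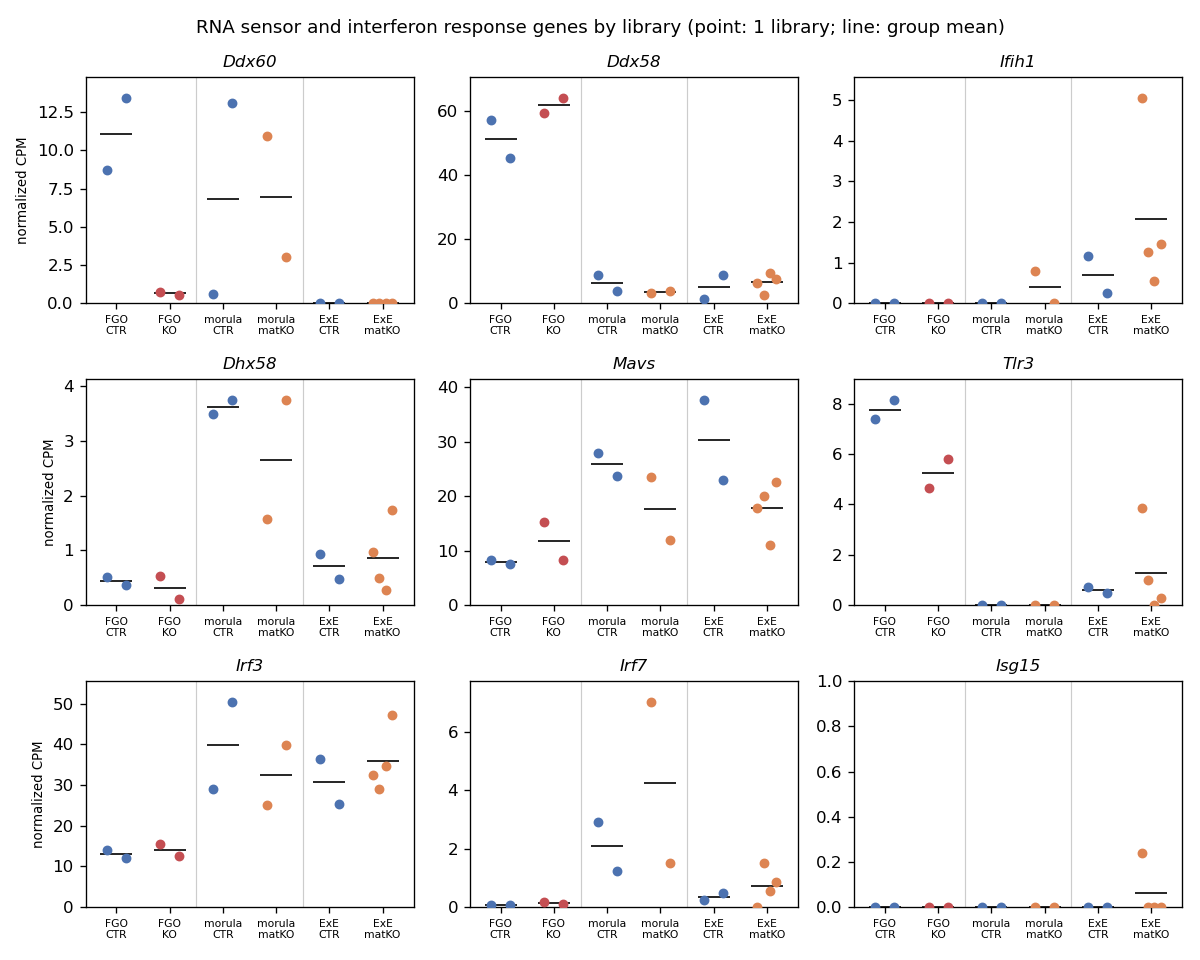
Normalized CPM (y axis, linear from 0, with its own range in each panel) of the 9 genes in every library, by stage and genotype (x axis); points are libraries and lines are group means. Ddx60 sits at 8.75 and 13.5 CPM in FGO CTR and under 1 CPM in FGO KO, while Ddx58 sits between 45.1 and 64.0 CPM in all 4 FGO libraries; embryo values come from allele-assigned reads and are not on the scale of FGO values.

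Of the other cytoplasmic helicases Ddx58 was well measured in oocytes and was not lower in KO, while Ifih1 and Dhx58 were too low to follow. Ddx58, the RIG-I gene, was at 57.1 and 45.1 CPM in FGO CTR and at 59.2 and 64.0 CPM in KO. Both KO values lay above both CTR values, by a log2 difference of 0.27 (SE 0.17). Ifih1, the MDA5 gene, had no count in any of the 4 FGO libraries, which allows a level of up to 0.0596 CPM in CTR and 0.0689 CPM in KO over each group (3 counts). Dhx58, the LGP2 gene, was near the detection level, with 13 and 9 counts in FGO CTR and 13 and 2 in KO. These groups overlapped, and the log2 difference of -0.39 had an SE of 0.77, too wide to read a direction; without KO replicate 1 it was -2.0. Control oocytes thus held transcripts of Ddx58 and Ddx60, while Ifih1 was not detectable at this depth.

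The adaptor and the endosomal receptor differed far less than Ddx60 in oocytes. Mavs was at 8.21 and 7.56 CPM in FGO CTR and at 15.2 and 8.23 CPM in KO. The higher KO value came from 1 library: the log2 difference of 0.58 (SE 0.31) was 0.06 without KO replicate 1 and 0.94 without KO replicate 2. Tlr3 was at 7.38 and 8.16 CPM in CTR and at 4.66 and 5.82 CPM in KO. Both KO values were below both CTR values, a log2 difference of -0.57 (SE 0.27).

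Among the transcription factors, Irf3 was present and Irf7 close to absent. Irf3 was at 14.0 and 12.1 CPM in FGO CTR and at 15.6 and 12.5 CPM in KO, with overlapping groups and a log2 difference of 0.11 (SE 0.22). Irf7, which interferon induces in other cells, had 2 and 2 counts in FGO CTR and 4 and 2 in KO. Isg15, a widely used readout of interferon signalling, had no count in the 4 FGO libraries. Its promoter window, shown above, holds the ISRE core 3 times and that of Ddx60 holds it 2 times. The same upper limits hold as for Ifih1.

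**Figure D2:**
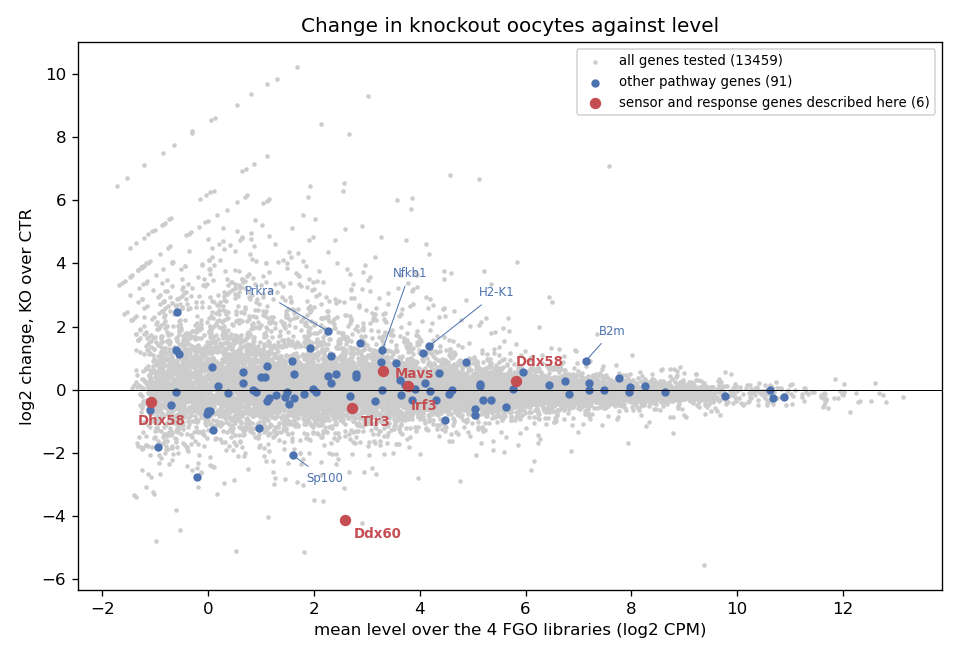
Log2 change of KO over CTR (y axis) against the mean level over the 4 FGO libraries in log2 CPM (x axis) for the 13459 genes tested; red points are the 6 of the 9 genes that were tested and blue points are 91 other genes of the pathway lists, with the called ones named. Ddx60 lies at -4.11 at the lower edge of all genes, and the other 5 red points lie between -0.57 and 0.58.

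Other genes of the pathway were read from 7 lists covering sensors, adaptors and kinases, IRF and NF-kB factors, interferons, interferon receptors with JAK-STAT, interferon-stimulated genes and the OAS1 family. Without the 9 genes the lists as reported held 162 genes, of which 160 were in the table and 91 were tested in FGO. Of these, 4 rose and 1 fell in KO, or 5.49% called against 7.22% of all genes tested. Their median log2 change was 0.0046, against 0.0039 for all genes tested. The order of these shares depended on the setting. With the replicate number as a block 19.8% of the pathway genes were called against 15% of all genes, and without KO replicate 2 it was 16.7% against 14.3%. The pathway share was also the higher one without CTR replicate 1 (9.47% against 5.61%), with the DESeq2 Wald test (10.4% against 8.31%) and without the filter on low counts (13.1% against 8.75%). No difference between the lists and all genes can be read from them.

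The 4 that rose were of different roles. Prkra, which encodes the double-stranded RNA binding activator of the kinase PKR, was at 2.42 and 1.70 CPM in FGO CTR and 8.42 and 6.45 CPM in KO (log2 1.85, SE 0.33, adjusted p = 0.0121). Nfkb1, the precursor of the NF-kB p50 subunit, was at 6.60 and 4.85 CPM in CTR and 16.2 and 11.2 CPM in KO (log2 1.26, SE 0.28, adjusted p = 0.0324). In both genes every KO library lay above every CTR library.

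The other rises were in antigen presentation genes, which interferons induce in many cells. H2-K1, an MHC class I heavy chain, was at 10.4 and 9.54 CPM in FGO CTR and 27.3 and 24.3 CPM in KO (log2 1.37, SE 0.20, adjusted p = 0.00569). B2m, its light chain, was at 106 and 89.6 CPM in CTR and 166 and 199 CPM in KO (log2 0.90, SE 0.16, adjusted p = 0.0124). Reads of H2-K1 may be shared with near-identical class I genes, and the sources used here do not say how the authors counted such reads.

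The gene that fell was Sp100, a nuclear body protein that interferon induces and that restricts DNA viruses. It was at 3.71 and 5.66 CPM in FGO CTR and 1.27 and 0.944 CPM in KO (log2 -2.07, SE 0.39, adjusted p = 0.0154). Among these calls, those of Prkra and H2-K1 held with each FGO library left out. B2m (adjusted p = 0.0808) and Sp100 (0.0698) were lost without CTR replicate 2. Nfkb1 was lost without CTR replicate 2 (0.129) and without KO replicate 1 (0.106).

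**Figure D3:**
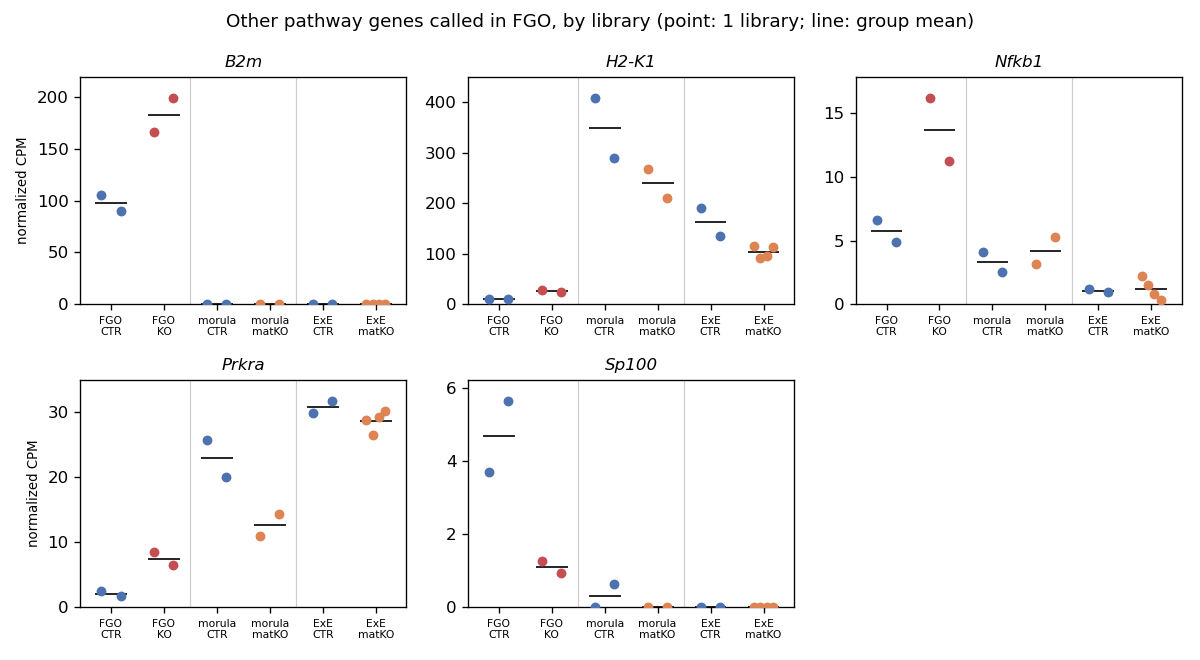
Normalized CPM (y axis, linear from 0, with its own range in each panel) of 5 other pathway genes called in FGO, in every library, by stage and genotype (x axis); points are libraries and lines are group means. In FGO the KO points of 4 genes lie above CTR and those of Sp100 below, while in ExE the H2-K1 points of matKO, at 90.3 to 115 CPM, lie under both CTR points, at 191 and 135 CPM.

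By list, 1 of 19 tested sensors and RNA-binding effectors rose (Prkra) and none fell. None of 15 tested adaptors and kinases was called, and the smallest p belonged to Rnf125, a ubiquitin ligase that marks RIG-I for degradation. Rnf125 was at 35.6 and 47.5 CPM in FGO CTR and 21.7 and 26.6 CPM in KO (log2 -0.79, SE 0.21, adjusted p = 0.0596), with groups that did not overlap. Of 7 tested IRF and NF-kB factors 1 rose (Nfkb1), with a list median of 0.51. Of 34 tested interferon-stimulated genes 2 rose (H2-K1 and B2m) and 1 fell (Sp100). None of 11 tested receptor and JAK-STAT genes was called. Ifngr2, a chain of the interferon gamma receptor, came closest, with 4 and 5 counts in FGO CTR and 30 and 15 in KO (log2 2.47, SE 0.62, adjusted p = 0.0505).

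The interferon genes themselves were at or near 0. None of the 21 in the table passed the filter in FGO, and 6 of them had a count in any FGO library. Parts of the pathway next to the sensors were also near 0 in oocytes, chosen here after their values were seen. Trim25, a ubiquitin ligase of RIG-I, had 3 counts over the CTR libraries and 8 over the KO libraries. Ticam1, the adaptor of TLR3, had 1 and 9 counts, Irf9 had 3 and 0, and Ifnar2, a chain of the type I interferon receptor, is listed at 0 in all 4. Ifnar1, the other chain, was at 15.9 ± 1.47 CPM in CTR and 12.6 ± 1.62 CPM in KO (SD, n = 2 each; log2 -0.33, SE 0.21, adjusted p = 0.412), and the kinase gene Tbk1 was at 24.5 ± 1.37 and 24.1 ± 2.93 CPM.

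The OAS1 family, whose active forms make the activator of RNase L, was well covered in oocytes. Of its 8 genes all were tested in FGO and none was called. Oas1d was at 1571 ± 24.5 CPM in FGO CTR and 1575 ± 117 CPM in KO, and Oas1e was at 2039 ± 142 and 1735 ± 483 CPM (SD, n = 2 each). The smallest p in the family was that of the low Oas1a, with 33 counts over the CTR libraries and 8 over KO (log2 -1.82, SE 0.67, adjusted p = 0.160). These genes are close paralogs, so reads may be split among them.

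On mouse chromosome 8 (GRCm38.p6) Ddx60 spans 61928073 to 62037704, and no tested gene beside it had a change near that size. On one side Palld, an actin-binding protein gene, was at -0.05 (SE 0.15, adjusted p = 0.881), Cbr4 at 0.07 (SE 0.21, adjusted p = 0.889) and Sh3rf1 at 0.32 (SE 0.17, adjusted p = 0.327), as log2 differences of KO minus CTR. On the other side Anxa10 had 7 counts over CTR and 9 over KO and was not tested, and Spock3 was at -0.48 (SE 0.22, adjusted p = 0.265). Sgo2b, beyond Spock3, was not analysed here. Palld, which ends at 61902707, was at 59.0 and 58.1 CPM in FGO CTR and 57.8 and 54.9 CPM in KO. None of the 4 tested neighbours was called.

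The genes whose level followed that of Ddx60 most closely over all 14 libraries were ranked by Pearson's r of log2(CPM + 1) among 8755 genes with a mean of at least 5 CPM in FGO CTR. The top 5 were Cdk5rap1 (r = 0.88), AU015228 (0.88), Cyp2f2 (0.86), Dcc (0.86) and 1700010D01Rik (0.86). These libraries share stage and the kind of counting, so r is a description. They include the FGO libraries in which Ddx60 fell, so that lower KO levels of the 5 genes follow in part from the choice. Their log2 changes in FGO lay between -1.35 and -0.64.

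Markers of other cells were examined for the same oocyte libraries. Macrophage and leukocyte markers summed to 46.9 to 58.5 CPM in FGO CTR and 54.3 to 74.4 CPM in KO, with Lyz2 and Cd14 at 0 in both groups and none of 3 tested markers called. Granulosa markers summed to 95.1 to 98.7 CPM in CTR and 93.0 to 152 CPM in KO, with Amh at 0 in KO and 1 of 8 tested markers higher. Decidua and stroma markers summed to 50.3 to 54.2 CPM in CTR and 18.7 to 24.9 CPM in KO, with 1 of 2 tested markers lower and Lum and Pgr at 0 in CTR. Blood markers were at 0 throughout FGO. The part of these cells in the change of Ddx60 was not tested.

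In morulae 12 of 9063 genes were called (0.132%) and none of the 3 tested genes of the 9 (Ddx60, Mavs and Irf3) was among them. None of the 3 had an unadjusted p under 0.05. The DESeq2 Wald test called neither Mavs nor Irf3, and it gave no adjusted p for Ddx60, which it therefore could not call. Ddx60 had 1 and 21 counts (0.583 and 13.1 CPM) in morula CTR and 14 and 4 counts (11.0 and 3.0 CPM) in the libraries labelled matKO. The groups overlapped fully, with a log2 difference of 0.04 (SE 1.13, adjusted p = 0.989). Its sign turned without CTR replicate 1 (-0.91) and without matKO replicate 1 (-1.15), so no direction can be read at this depth.

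Mavs was at 28.0 and 23.7 CPM in morula CTR and 23.5 and 12.0 CPM in those labelled matKO (log2 -0.55, SE 0.43, adjusted p = 0.522). Irf3 was at 29.1 and 50.5 CPM in CTR and 25.04 and 39.8 CPM in those labelled matKO (log2 -0.29, SE 0.39, adjusted p = 0.722), with overlapping groups. The Irf3 value was 0.17 without CTR replicate 2. The other genes had too few allele-assigned counts to test. Ddx58 had 15 and 6 counts in CTR and 4 and 5 in those labelled matKO, and Dhx58 had 6 and 6 against 2 and 5. Irf7 had 5 and 2 counts against 9 and 2. Ifih1 had 1 count in all 4 morula libraries together, and Tlr3 and Isg15 are listed at 0.

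Of 60 other pathway genes tested in morulae none was called by edgeR, and 7 had an unadjusted p under 0.05 (against 1791 of all 9063 genes, or 19.8%). The DESeq2 Wald test called 1 (1.89% of those it tested, against 2.47% of all genes). H2-D1, another class I heavy chain, had the smallest p among interferon-stimulated genes (log2 -0.78, SE 0.19, adjusted p = 0.108). Socs3, an inhibitor of JAK-STAT signalling, differed most in size among the genes with the smallest p of a list (log2 2.82, SE 0.80, adjusted p = 0.137). It rests on few counts, with 1 and 7 in CTR and 28 and 18 in those labelled matKO.

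In ExE none of 8386 genes was called (0%) by edgeR, although 1161 had an unadjusted p under 0.05, and the DESeq2 Wald test called 214. None of the 3 tested genes of the 9 (Ddx58, Mavs and Irf3) passed in either, and 1 had an unadjusted p under 0.05 (Mavs). Ddx60 is listed at 0 in all 6 ExE libraries, which allows up to 0.354 CPM in CTR and 0.196 CPM in matKO of allele-assigned reads (3 counts over each group). Reads of Ddx60 could be assigned to an allele in morulae, at 40 counts in all, so strain variants exist in its transcripts.

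Mavs was lower in ExE matKO in every library, without passing the test. It was at 37.7 and 23.0 CPM in ExE CTR and 17.8, 20.1, 11.1 and 22.6 CPM in matKO. The groups did not overlap, but the highest matKO value lay just under the lower CTR value. The log2 difference was -0.76 (SE 0.30, adjusted p = 0.308), and -0.59 without matKO replicate 3 and -0.37 without CTR replicate 1.

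Irf3 was at 36.3 and 25.4 CPM in ExE CTR and 32.6, 29.1, 34.8 and 47.2 CPM in matKO, with overlapping groups (log2 0.22, SE 0.25, adjusted p = 0.744; 0.23 without matKO replicate 3). Ddx58 was at 1.40 and 8.87 CPM in CTR and 6.27, 2.51, 9.44 and 7.53 CPM in matKO (log2 0.32, SE 0.68, adjusted p = 0.865; 0.08 without matKO replicate 3). The 2 control libraries of Ddx58 spanned nearly the range of the 4 matKO libraries, and the value turned to -0.47 without CTR replicate 1.

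The remaining sensors were near the counting limit in ExE. Ifih1 had 5 and 1 counts in CTR and 21, 5, 2 and 5 in matKO, and Tlr3 had 3 and 2 counts in CTR and 16, 4, 0 and 1 in matKO. For both genes the highest count lay in matKO replicate 1 and the other matKO libraries overlapped with CTR. Dhx58 had at most 6 counts and Irf7 at most 6 counts in an ExE library. Isg15 had 1 count in the 6 libraries together.

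Among 66 other pathway genes tested in ExE none was called by edgeR, and 8 had an unadjusted p under 0.05 (against 13.8% of all genes). The DESeq2 Wald test called 2 (3.08% of those it tested, against 2.58% of all genes). H2-K1 had the smallest p among the interferon-stimulated genes, at 191 and 135 CPM in CTR and 115, 90.3, 96.0 and 113 CPM in matKO. Every matKO library lay below both CTR libraries, with a log2 difference of -0.65 (SE 0.17, adjusted p = 0.182). Jak2, a kinase of cytokine receptors, was at 17.00 and 31.2 CPM in CTR and 12.5, 16.6, 14.6 and 14.8 CPM in matKO, also with groups that did not overlap (log2 -0.72, SE 0.28, adjusted p = 0.305). Macrophage and leukocyte markers summed to 10.5 to 14.4 CPM in ExE CTR and 4.34 to 11.5 CPM in matKO, with Ptprc, Adgre1 and Lyz2 at 0 in both, and their part in these differences was not tested. Of these 12 markers 2 had a count in CTR and 3 in matKO.

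**Figure D4:**
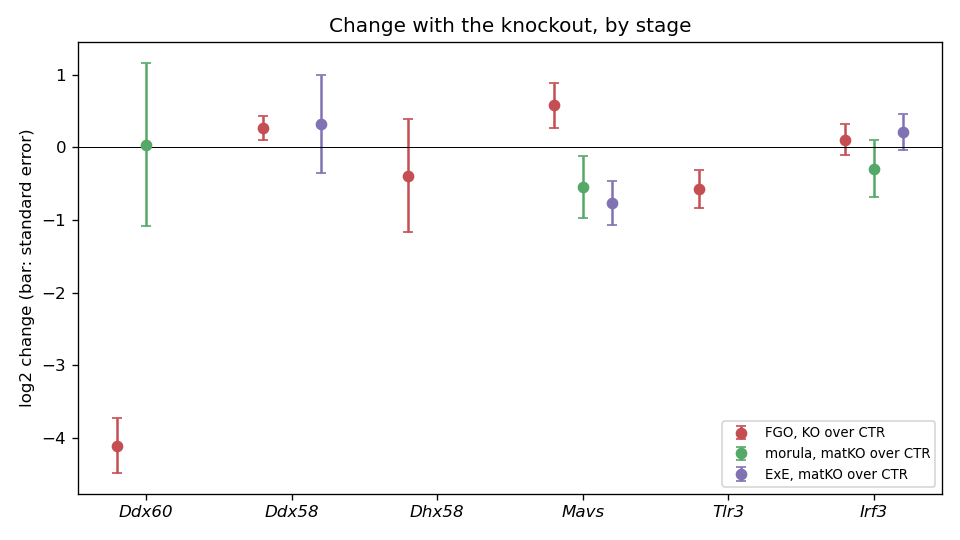
Log2 change with the labelled knockout (y axis) for the genes that passed the filter on low counts (x axis), as KO over CTR in FGO and matKO over CTR in morulae and ExE; bars are standard errors. Ddx60 is at -4.11 in FGO and 0.04 in morulae, and Mavs is above 0 in FGO and below 0 in both embryonic stages. Genes with no point in a stage had too few counts to test there, and embryo counts hold only allele-assigned reads.

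Between the control embryos of both stages, 6735 of 9977 genes were called (67.5%), so a call is common here, and the median log2 difference of ExE minus morula over all genes was -0.28, or -0.95 with library totals and no normalization factor. Mavs was called higher in ExE (log2 0.86, SE 0.34, adjusted p = 0.0392), but not with library totals (0.20, adjusted p = 0.642), with the DESeq2 Wald test (adjusted p = 0.120), or without morula CTR replicate 1 (0.122), morula CTR replicate 2 (0.197) or ExE CTR replicate 1 (0.313). Dhx58 was at 0.932 and 0.480 CPM in ExE CTR and at 3.497 and 3.74 CPM in morula CTR, adjusted within each stage only. Its edgeR log2 difference was -1.67 (SE 0.74, adjusted p = 0.0641), and -2.33 with library totals (adjusted p = 0.0161). Irf3 (log2 0.26, adjusted p = 0.505) and Ddx58 (log2 0.33, adjusted p = 0.733) did not pass, and both turned negative with library totals, to -0.40 and -0.36.

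The CPM of the 2 control stages were adjusted within each stage only, so they are not on the scale of the fit above. They are listed here, and no order of levels over the stages is read from them. Ddx60 stood at 6.84 ± 8.85 CPM in morula CTR (SD, n = 2) and at 0 in ExE CTR, but 1 of the morula libraries was itself under the level of 3 counts. Irf3 was at 29.1 to 50.5 CPM in morula CTR and 25.4 to 36.3 CPM in ExE CTR. Its mean CPM was lower in ExE, while the fit between stages gave a log2 difference of 0.26. Mavs was at 23.7 to 28.0 CPM in morula CTR and 23.0 to 37.7 CPM in ExE CTR. Tlr3 and Ifih1 were at 0 in morula CTR, where up to 0.904 CPM could go undetected over the group, and at 0.589 and 0.702 CPM in ExE CTR.

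The parental origin of the transcripts could be followed for 3 genes. Ddx58 reads were mostly paternal: 17 of 21 in morula CTR (81.0%, 95% exact binomial interval 58.1 to 94.6), 39 of 43 in ExE CTR (90.7%, 77.9 to 97.4) and 89 of 97 in ExE matKO (91.8%, 84.4 to 96.4), or 55 of 62 (88.7%, 78.1 to 95.3) without matKO replicate 3. In morulae labelled matKO it was 7 of 9 (77.8%, 40.0 to 97.2). ExE CTR replicate 1 differed, with 3 of 6 reads paternal. The cross was made in 1 direction here, so parental origin and strain cannot be told apart.

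Mavs reads were shared evenly in ExE, with 50.4% paternal in CTR (130 of 258 reads, interval 44.1 to 56.6) and 50.5% in matKO (47.8% without matKO replicate 3). In morula CTR 55.8% were paternal (48 of 86, interval 44.7 to 66.5). In morulae labelled matKO it was 63.0% (29 of 46, interval 47.5 to 76.8), so an even share is less closely shown there. Irf3 leaned to the maternal allele, with 35.1% paternal in morula CTR (46 of 131, interval 26.98 to 43.9) and 37.4% in ExE CTR (98 of 262, interval 31.5 to 43.6). In ExE matKO it was 43.3% paternal, and 41.3% without matKO replicate 3. Morulae labelled matKO had 40.0% paternal Irf3 reads (34 of 85, interval 29.5 to 51.2). Over all genes 48.6% of autosomal reads were paternal in each of those CTR libraries. Ddx60 had 16 of 22 paternal reads in morula CTR and 16 of 18 in those labelled matKO, of which 15 came from CTR replicate 2 and 13 from matKO replicate 1.

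The allele-by-genotype test asked whether these shares moved with the labelled maternal knockout. In morulae 1 of 7407 genes was called (0.0135%), and of the 9 genes Mavs (log2 shift to paternal 0.37, SE 0.61, adjusted p = 0.954) and Irf3 (0.26, SE 0.53, adjusted p = 0.966) were tested and not called. In ExE 5 of 6858 genes were called (0.0729%), and Ddx58 (0.09, SE 1.51), Mavs (-0.15, SE 0.34) and Irf3 (0.13, SE 0.29) were not, with adjusted p of 1, 0.981 and 0.984. Without matKO replicate 3 these shifts were -0.13, -0.17 and 0.25, so that of Ddx58 changed sign.

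**Figure D5:**
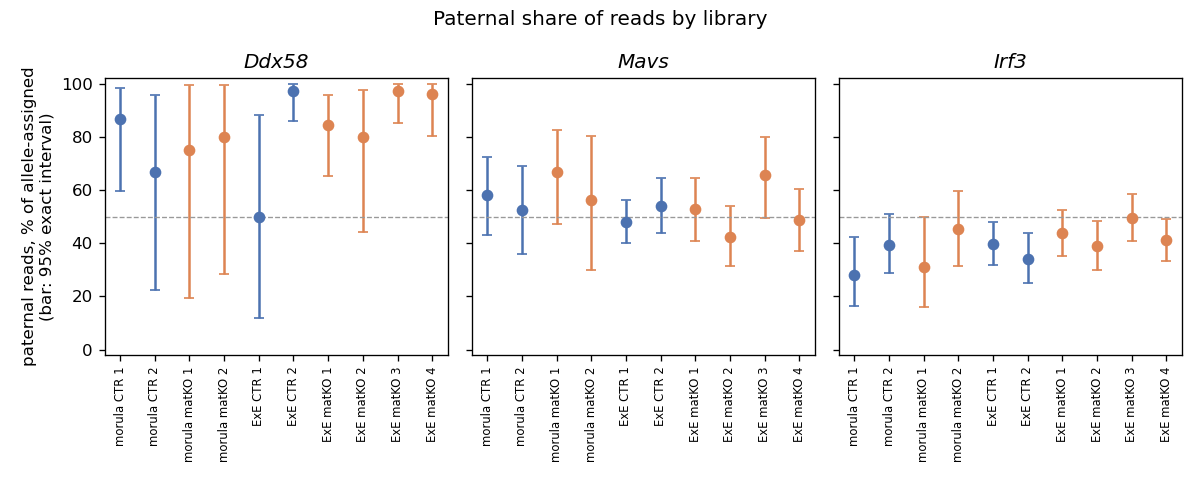
Percent of allele-assigned reads that were paternal (y axis) for Ddx58, Mavs and Irf3 in each morula and ExE library (x axis); bars are 95% exact binomial intervals, which cover counting error only, and the dashed line marks equal shares. Ddx58 lies above the line in 9 of 10 libraries, Mavs lies around it and Irf3 lies below it in all 10.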

How the data were processed

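The authors deposited raw gene counts, per the file headers: 1 column per FGO library, and a maternal and a paternal column per morula and ExE library, summed here for expression. Libraries were made with SMART-Seq v4 and Nextera XT, per the labels' protocols. The submitters' processing notes list STAR 2.7.3, RSEM 1.3.1 and the build mm10 among others; which tool made the counts is not given in the sources used here. The other 4 RNA samples were not used here.

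Counts were tested with edgeR 4.0.16 (TMM, filterByExpr, robust quasi-likelihood F test, no replicate block) within a stage, and calls were made below 0.05 after Benjamini-Hochberg adjustment over all genes tested. Allele shifts used maternal and paternal counts of autosomal genes with a mean of at least 20 reads. The scripts were tested on simulated data. Alternatives were DESeq2 1.42.0, its size factors, other filters, the block, left-out libraries and, added after seeing the data, library totals.

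The 9 genes and the lists were chosen with earlier results of these data known. The rule for other named genes takes, per list and comparison, up to 3 called genes with the smallest p, or else the 1 with the smallest p, the 3 neighbours of Ddx60 on each side and the 5 genes most like it. Within a group no 2 libraries were duplicates, as the chi-square of their counts per degree of freedom was 3.94 or more. It was highest for the FGO KO pair, at 58.3, against 18.9 for the FGO CTR pair. Pairs from different groups were not compared. Of the listed genes 1 is not reported here, and it was left out of the list counts.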

Additional observations from a re-analysis of the deposited data

Results flagged for a closer look

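In ExE matKO replicate 3, 64.9% of autosomal reads were paternal, far from the other 3 matKO libraries at 48.5 to 48.8%. This share was 1 of 23 quantities examined for an outlying library, all in these same 4 libraries. The others were levels of single genes, and none of them was flagged. At the threshold used chance would flag about 1 in 20 quantities, which does not measure how far this share lies from the others.

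For 6 genes every knockout library lay on one side of every control library in one stage and on the opposite side in another, and these differences were not tested. They are 6 of 17 of the described genes with more than 3 counts in every library of 2 or more stages (35.3%), against 1555 of 9217 of all such genes (16.9%). Of the described genes, those outside the 9 were taken for a small p in a stage, so the shares cannot be compared, and morula groups are as labelled. Mavs was higher in FGO KO (log2 0.58) and lower in morulae labelled matKO (-0.55) and ExE (-0.76), a difference of 1.12 for FGO minus morula and -1.34 for ExE minus FGO. Its margins were thin: in FGO the lower KO value was 8.23 CPM against a higher CTR value of 8.21 CPM. H2-K1 was higher in FGO KO (1.37) and lower in morulae labelled matKO (-0.55) and ExE (-0.65), a difference of 1.92 for FGO minus morula and -2.03 for ExE minus FGO. Prkra was higher in FGO KO (1.85) and lower in morulae labelled matKO (-0.85), a difference of 2.702 for FGO minus morula. Rnf125 was lower in FGO KO (-0.79) and higher in ExE matKO (1.37), a difference of 2.16 for ExE minus FGO.

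The RNA helicase genes Ddx3x and Ddx21 differed less in size. Ddx3x was at -0.40 in ExE against 0.11 in FGO and 0.44 in morulae, differences of -0.51 and -0.84. Its ExE libraries differed in paternal Ddx3x reads, with 81 and 86 in CTR replicates 1 and 2. There were 0 in matKO replicates 1 and 4, and 351 and 340 in matKO replicates 2 and 3. The part of this in the ExE value of Ddx3x was not tested. Ddx21 was at -0.05 in FGO and 0.42 in morulae, a difference of -0.47. In embryos none of these 6 genes was called.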

How the results depend on the processing

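The Ddx60 log2 change in FGO stayed between -4.40 and -3.77 under 9 alternatives. Library totals moved the median of all genes in FGO from 0.00 to 0.11. The FGO contrast chose the 9 genes, so nothing is read from how many of them were called in FGO below. A group left with 1 library has no spread of its own, so counts of calls from such fits are a description. Between the control stages a call is common, as 67.5% of all genes were called in the main fit. Leaving libraries out gave 767 to 2029 called genes in FGO, with 1 to 2 of the 9 genes and 5 to 16 other pathway genes among them. It gave 7 to 524 in morulae (0 to 3 other pathway genes), 0 to 6 in ExE, 0 to 2 of the 9 genes between the control stages, 0 to 1 for morula alleles and 4 to 14 for ExE alleles. The DESeq2 Wald test called 10 other pathway genes in FGO (10.4% of those tested, against 8.31% of all genes). In morulae it called 199 genes, 1 of the pathway (1.89% against 2.47%). In ExE it called 214 genes, 2 of the pathway (3.08% against 2.58%). DESeq2 size factors gave 54 genes in morulae. Without the filter 1630 genes were called in FGO, 17 of the pathway (13.1% of those tested, against 8.75% of all genes). In morulae 489 were called, 2 of the pathway (1.9% against 3.24%), and in ExE 112, with 0 of the pathway (against 0.853%). Between the control stages 2 of the 9 genes were called, where 49.5% of all genes were. A minimum of 10 reads gave 2 genes for morula alleles. The causes were not tested.

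The replicate numbers of the labels are not said to pair samples. Same-numbered libraries had deviations correlated at 0.30 in FGO, 0.18 in morulae and 0.26 in ExE, over 2 pairs each. With the replicate number as a block, 2021 genes were called in FGO, 18 of the pathway (19.8% of those tested, against 15% of all genes). In morulae 310 were called, 2 of the pathway (3.33% against 3.42%), and in ExE 923, 10 of the pathway (15.2% against 11%). The ExE value of Ddx58 was then -0.033.

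Signs of small log2 changes depended on single libraries. Leaving 1 out gave -1.15 to 3.41 for Ddx60 (-0.91 without CTR replicate 1) and -0.66 to 0.17 for Irf3 in morulae (0.0015 without matKO replicate 1). In ExE it gave -0.47 to 2.171 for Ddx58 and -0.021 to 0.49 for Irf3. Between control stages it gave -1.50 to 1.13 for Ddx58 and -0.14 to 0.70 for Irf3, which were -0.36 and -0.40 with library totals. Allele shifts ranged from -0.22 to 0.68 for Irf3 and -0.021 to 0.64 for Mavs in morulae. In ExE they ranged from -1.88 to 3.10 for Ddx58 and -0.031 to 0.33 for Irf3, and the Mavs shift was 0.041 with no allele offset. Morula depth limits what can be read below 1.75 to 2.35 CPM.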

Other observations

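Irf7 reads in matKO embryos lay almost wholly on opposite alleles in the 2 stages. In morulae labelled matKO 11 of 11 were paternal (95% exact binomial interval 71.5 to 100%), and in ExE matKO 1 of 11 (0.230 to 41.3%). Without ExE matKO replicate 3 the ExE share was 1 of 9 (11.1%, interval 0.281 to 48.2%). In CTR 4 of 7 were paternal in morulae and 1 of 3 in ExE. The intervals cover counting error only, and 9 of the 11 morula reads came from 1 library.

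Tlr3 and Ifih1 had their highest ExE count in the same library, matKO replicate 1, at 16 and 21 counts, against at most 4 and 5 counts in the other 5 ExE libraries. That library held 48.8% paternal autosomal reads, close to the other libraries but matKO replicate 3.

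Ddx58 had 37 counts in ExE CTR replicate 2, of which 36 were paternal, and 6 counts in ExE CTR replicate 1, of which 3 were paternal, at totals of 4361832 and 4219202 counts.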
